A study of Mus musculus with 12 samples.

Results

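Periostin (Postn), TGF-beta induced protein (Tgfbi), fibronectin (Fn1), tenascin C (Tnc), Sparc, osteopontin (Spp1) and Cilp were followed as 7 listed matricellular and provisional matrix genes in mouse hearts under pressure overload. Each gene was read on its brightest probe set that carries 1 gene symbol, and 6 of the 7 genes were found this way among 26989 genes tested. Spp1 was not analysed here. Hearts of male C57BL/6J mice aged 10 weeks were taken 2 weeks after surgery and hybridized singly to Affymetrix mouse Clariom D arrays. The 4 groups held 3 hearts each: ADAM12 knockout after transverse aortic constriction (TAC), wild type after TAC, ADAM12 knockout after sham operation, and wild type after sham operation. TAC narrows the aortic arch, so that the left ventricle pumps against a raised pressure. ADAM12 is a membrane-anchored metalloprotease, and the labels do not describe the knockout allele or its controls beyond the genotype.

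Matricellular proteins are secreted into the extracellular matrix but act on cells and on matrix assembly more than they bear load. Many of them are scarce in the healthy adult heart and are made mainly by activated fibroblasts after injury or overload. Fibronectin forms the provisional scaffold onto which collagen is laid, and tenascin C, periostin and TGFBI bind integrins and neighbouring matrix proteins. SPARC binds collagen, and CILP is known for holding back signalling by TGF-beta1 and IGF1.

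The genes lie on different chromosomes. By RefSeq coordinates of build GRCm38.p6, Postn spans chr3:54359267-54391041, Tgfbi chr13:56609586-56639359, Fn1 chr1:71585473-71653280, Tnc chr4:63959785-64047015, Sparc chr11:55394159-55420080 and Cilp chr9:65265180-65280614. Promoter sequence from RefSeq was matched for 6 of the 7 listed genes, and Fn1 was not among them. The 30 bases before the annotated start are shown for the 5 genes that were also measured. Capitals mark the letters TATATAA, or TATAAA overlapping them. Where RefSeq gave 2 starts (Postn and Tnc), the start whose window held more motif matches was taken, after the matches were seen.
Postn: gcTATATAAActcagctctccagagcacag
Tnc: cTATATAAgcctgccaaagctggctgctcc
Cilp: TATATAAgacggctggactgctggagaggt
Sparc: tttaggcaggagccccagaacagatgagac
Tgfbi: actaaacccagcgcgcgctgccccgctgct
These windows lie at chr3:54361077-54361106 (plus strand), chr4:64046937-64046966 (minus), chr9:65265150-65265179 (plus), chr11:55420081-55420110 (minus) and chr13:56609556-56609585 (plus). TATATAA began 28 bases before the start of Postn, 29 before that of Tnc and 30 before that of Cilp. On the gene's own strand and with its first base 20 to 35 bases before the start, it stood in 0.551% of 32851 promoters of RefSeq genes. Tgfbi and Sparc lacked it in their whole 250-base windows, where 3.04% of promoters held it on either strand. This motif was added after the sequences had been read. The shares take every promoter, while the starts of Postn and Tnc were picked with their matches seen, so the comparison is not like for like.

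The 250 bases before the start are shown in full for Postn (chr3:54360857-54361106, plus strand) and Cilp (chr9:65264930-65265179, plus strand), 2 genes of large response with TATATAA near the start.
Postn: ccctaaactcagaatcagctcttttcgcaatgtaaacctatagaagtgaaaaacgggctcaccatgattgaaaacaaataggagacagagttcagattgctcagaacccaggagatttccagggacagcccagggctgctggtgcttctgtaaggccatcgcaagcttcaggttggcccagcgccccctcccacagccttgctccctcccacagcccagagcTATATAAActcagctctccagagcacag
Cilp: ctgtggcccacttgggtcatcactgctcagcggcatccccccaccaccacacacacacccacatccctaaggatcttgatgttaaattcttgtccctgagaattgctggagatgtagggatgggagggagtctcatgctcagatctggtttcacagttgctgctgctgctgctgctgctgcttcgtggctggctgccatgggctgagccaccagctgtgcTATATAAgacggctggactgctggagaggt
The letters TATAAA (in 12.4% of promoters), TGANTCA (6.75%), CAGACA (17.1%) and GGAATG (12.6%) were also searched for, on both strands. TGANTCA and GGAATG were found in none of the windows of the measured genes. CAGACA stood on the reverse strand 71 bases before the start in Tnc and 36 before it in Sparc. Another TATAAA began 205 bases before the start of Tnc. A match in these windows is a description of letters, not evidence of a bound site.

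Array medians, taken on log2 signals of every probe set, ran between 5.06 and 5.19. The 95th percentile of the 23 background probe sets was 5.78. Adam12 was read on a probe set shared with another symbol, at 4.25, 4.40 and 4.36 in knockout TAC hearts and 4.56, 4.73 and 4.80 in wild type TAC hearts. In sham hearts it read 4.33, 4.40 and 4.32 in the knockout, against 4.54, 4.46 and 4.61 in the wild type. The highest knockout reading was under the lowest wild type reading, but each of them was under that background percentile. Tnnt2, the troponin T of heart muscle, stood between 19.57 and 19.65 on all arrays, and the smooth muscle myosin Myh11 and the endothelial marker Pecam1 were above background on all. The atrial light chain Myl7 varied between 10.81 and 15.97 over the 12 arrays, with overlapping groups (TAC against sham in the knockout, difference -1.17 ± 1.02, adjusted p = 0.554 by limma). The 7 atrial markers summed to 19.67 to 19.97 in knockout TAC hearts and 18.99 to 19.52 in wild type TAC hearts, and in sham hearts to 17.87 to 19.73 in the knockout and 17.49 to 19.39 in the wild type. That sum was mostly Nppa, the atrial natriuretic peptide gene (19.66 to 19.91 in knockout TAC hearts, TAC difference 1.39 ± 0.46, adjusted p = 0.0761). The differences of Myl7, Myl4 (-0.39 ± 0.41) and Sln (-0.80 ± 1.13) had the other sign and were not called. Those of Bmp10 (2.39 ± 2.84), Dkk3 (0.82 ± 0.48) and Nr2f2 (0.07 ± 0.20) had the sign of Nppa and were not called either. The part of atrial tissue in the results below was not tested.

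**Figure D1:**
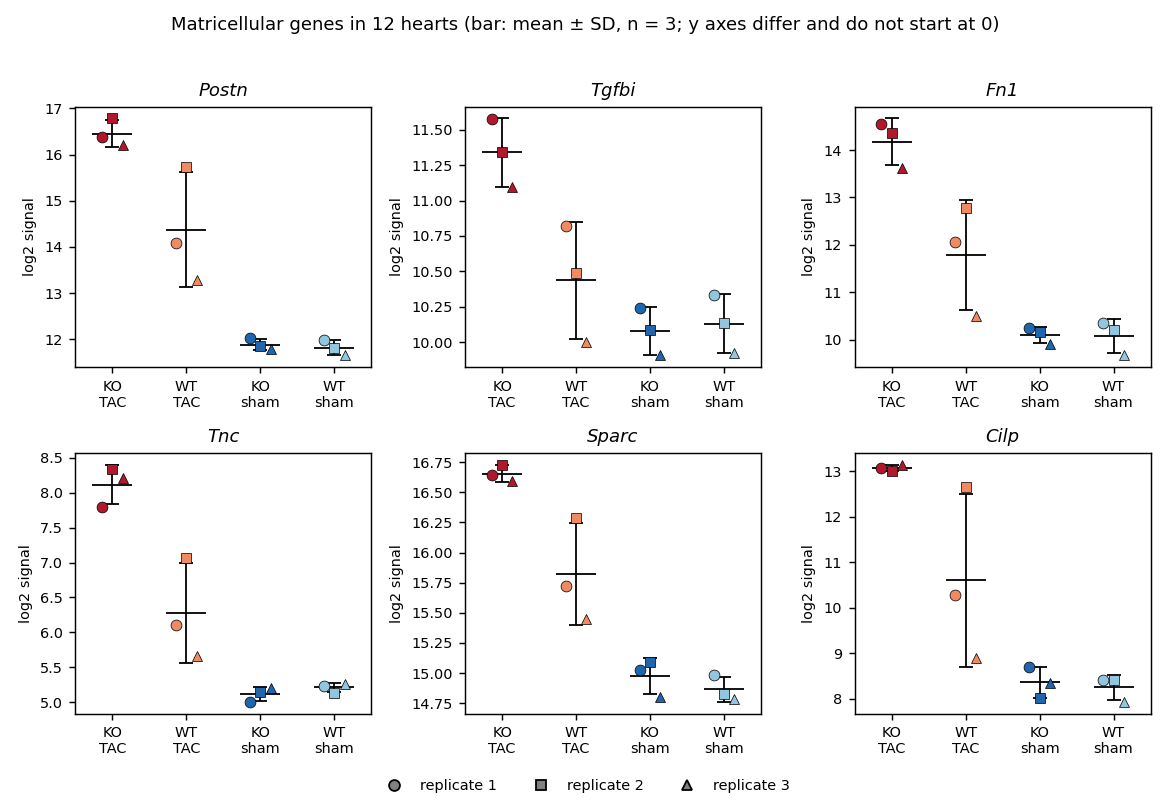
Log2 signal (y axis, its own range in each panel) of 6 matricellular genes in each heart, by group (x axis), with replicates 1 to 3 as circles, squares and triangles and the mean ± SD as bars (n = 3). Knockout (KO) TAC hearts lie highest for each gene, wild type (WT) TAC hearts are spread between them and the sham hearts (overlapping sham hearts in Tgfbi), and the sham groups overlap each other.

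After TAC the knockout hearts held more message of all 6 measured genes than knockout sham hearts. Cilp and Postn rose most, 26.1-fold and 23.8-fold, fibronectin 16.8-fold, Sparc 3.21-fold and Tgfbi 2.40-fold. Tenascin C rose at least 5.04-fold, its sham signal being below the background percentile. In wild type hearts each gene stood higher after TAC too, but no difference passed the threshold over all genes (adjusted p under 0.05 by limma), and the 3 hearts differed widely. Sham hearts of both genotypes had nearly the same level of each gene.

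Fibronectin is an adhesive glycoprotein recognised by integrin alpha5 beta1 and other integrins. Fn1 read 14.55, 14.35 and 13.61 in knockout TAC hearts and 12.05, 12.78 and 10.51 in wild type TAC hearts (log2 signal, replicates 1 to 3). After sham operation it read 10.24, 10.16 and 9.90 in the knockout, against 10.36, 10.21 and 9.67 in the wild type. The groups after TAC did not overlap, and the lowest wild type TAC heart lay only 0.15 above the highest wild type sham heart. In knockout hearts TAC raised Fn1 by 4.07 ± 0.46 (SE of limma, adjusted p = 0.000446), and in wild type hearts the difference was 1.70 ± 0.46 (adjusted p = 0.158). Between knockout and wild type TAC hearts Fn1 differed by 2.39 ± 0.46 (adjusted p = 0.0592), the next to largest of the 6 differences in this comparison.

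Tenascin C is a large oligomeric glycoprotein that appears transiently at sites of tissue remodelling and loosens cell adhesion. Tnc read 7.79, 8.34 and 8.22 in knockout TAC hearts and 6.11, 7.06 and 5.65 in wild type TAC hearts. In sham hearts it read 5.01, 5.14 and 5.20 in the knockout, against 5.23, 5.14 and 5.27 in the wild type. All 6 sham hearts and wild type TAC replicate 3 were under 5.78, so a level in sham hearts is only bounded. The measured means were 8.12 in knockout TAC and 5.12 in knockout sham hearts, a difference of 3.00 ± 0.27 (adjusted p = 0.000389). By p value this ranked 14 among all genes in that comparison. For wild type hearts the means were 6.28 after TAC and 5.21 after sham (difference 1.07 ± 0.27, adjusted p = 0.142). With the background percentile in place of the sham values the fold was 1.41. That is not a lower bound, since wild type TAC replicate 3 was itself under the percentile. Knockout TAC hearts exceeded wild type TAC hearts by 1.84 ± 0.27, with adjusted p = 0.0592 and rank 11 among all genes.

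Periostin carries fasciclin domains, marks activated fibroblasts and takes part in collagen crosslinking. Postn read 16.38, 16.78 and 16.21 in knockout TAC hearts and 14.09, 15.74 and 13.29 in wild type TAC hearts. After sham operation it read 12.02, 11.85 and 11.79 in the knockout, against 11.99, 11.80 and 11.65 in the wild type. Every TAC heart lay above every sham heart, in wild type by at least 1.30. The rise in knockout hearts was 4.57 ± 0.45 (adjusted p = 0.000389). The wild type difference, 2.56 ± 0.45, missed the threshold (adjusted p = 0.0604), and after TAC the genotypes differed by 2.08 ± 0.45 (adjusted p = 0.0675).

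TGFBI is a relative of periostin with the same kind of domain, named for its induction by TGF-beta. Tgfbi read 11.58, 11.34 and 11.10 in knockout TAC hearts and 10.82, 10.49 and 10.00 in wild type TAC hearts. In sham hearts it read 10.24, 10.08 and 9.90 in the knockout, against 10.33, 10.14 and 9.92 in the wild type. Wild type TAC and wild type sham hearts overlapped, which was so for none of the other 5 genes. The knockout difference was 1.26 ± 0.20 (adjusted p = 0.00167), against 0.31 ± 0.20 in wild type hearts (adjusted p = 0.572). Knockout TAC hearts stood 0.91 ± 0.20 above wild type TAC hearts (adjusted p = 0.0675).

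SPARC is a collagen-binding glycoprotein that takes part in collagen processing and deposition. Sparc read 16.64, 16.73 and 16.59 in knockout TAC hearts and 15.73, 16.29 and 15.45 in wild type TAC hearts. After sham operation it read 15.03, 15.09 and 14.80 in the knockout, against 14.98, 14.83 and 14.79 in the wild type. Its groups did not overlap between surgeries in either genotype or between genotypes after TAC. TAC raised Sparc by 1.68 ± 0.17 in knockout hearts (adjusted p = 0.000389). In wild type hearts the difference was 0.95 ± 0.17 (adjusted p = 0.0604), and between TAC groups it was 0.83 ± 0.17 (adjusted p = 0.0631).

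Cilp, first described in cartilage, had the widest range. It read 13.06, 13.01 and 13.15 in knockout TAC hearts and 10.28, 12.65 and 8.89 in wild type TAC hearts. In sham hearts it read 8.70, 8.03 and 8.36 in the knockout, against 8.42, 8.42 and 7.94 in the wild type. The knockout TAC hearts lay within 0.14 of each other in this gene, while wild type TAC hearts had an SD of 1.90. The rise in the knockout was 4.71 ± 0.67 (adjusted p = 0.00109), the wild type difference 2.35 ± 0.67 (adjusted p = 0.179) and the difference between TAC groups 2.46 ± 0.67 (adjusted p = 0.114).

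**Figure D2:**
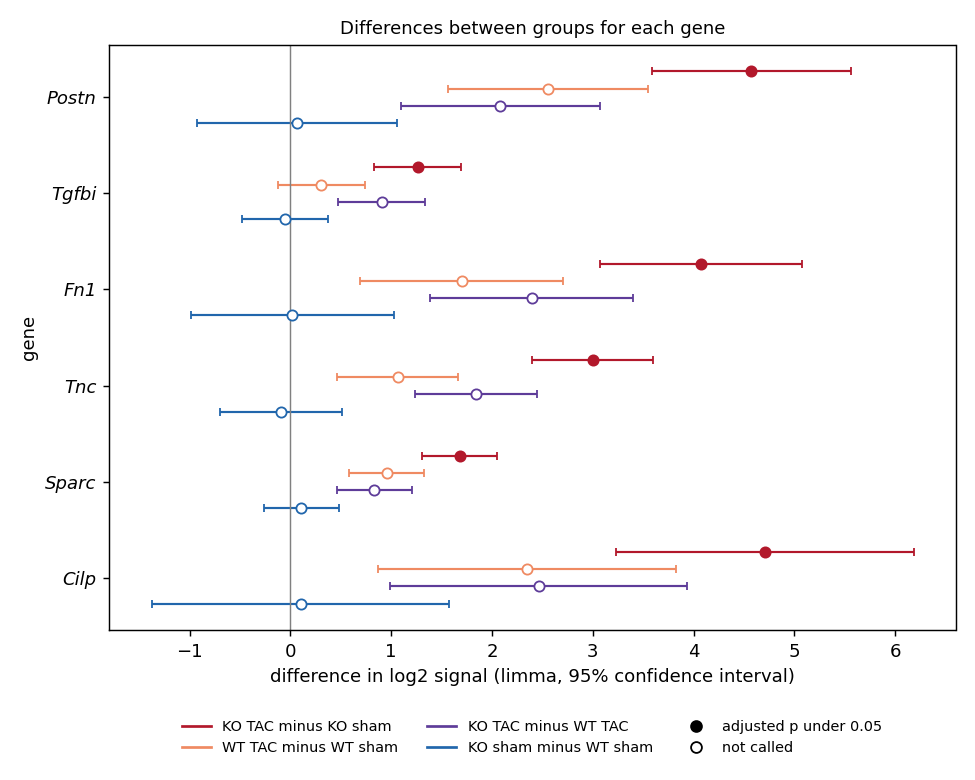
Differences in log2 signal (x axis) for each gene (y axis) with 95% confidence intervals from limma, in 4 comparisons marked by colour, filled where adjusted p was under 0.05 and open otherwise. The 6 filled points are the TAC differences in knockout hearts, and the differences between sham groups lie near 0.

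Counted together, 6 of 6 genes rose with TAC in knockout hearts, where 7.08% of all genes were called higher and 12.8% in either direction. Their median difference was 3.54 on the log2 scale, against -0.03 over all genes. Arrays of the knockout groups did not overlap for 6 of 6, as for 15.4% of all genes in that direction. In wild type hearts 0 of 6 were called by limma, where 0.178% of all genes were. There 5 of 6 had an unadjusted p under 0.05, as had 3330 of the 26989 genes. The 5 genes other than Tgfbi had non-overlapping arrays, which 9.03% of all genes had in that direction, and the median difference was 1.38, against 0.02 over all genes. Averaged over genotypes 6 of 6 were called higher (7.49% of all genes), by 0.78 to 3.56. The labels call the hearts of a group biological replicates.

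The wild type result rested on single hearts. Without wild type TAC replicate 3, the heart with the lowest signal in 6 of 6 genes, 5 of 6 were called in wild type hearts, with Cilp at 3.21, Postn at 3.10, Fn1 at 2.34, Tnc at 1.38 and Sparc at 1.14. Without wild type TAC replicate 2, the highest in 5 of 6, 0 were called and the Cilp difference was 1.33. With array weights 5 were called, with the replicate number as a block 3, and with quantile normalization or without dim genes 2. The array of wild type TAC replicate 3 had the highest median log2 signal of all arrays (5.19) and the lowest SD over genes (2.75). Wild type sham replicate 3 came next in both (5.16 and 2.78). The array weight of wild type TAC replicate 3 was also the lowest (0.44), and it read highest of its group in 44.7% of all genes. Whether its low readings in the 6 genes came from the array or the heart was not tested.

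Set against the sham mean of its genotype, wild type TAC replicate 2 was 4.39 higher in Cilp, 3.92 in Postn and 2.70 in Fn1. Replicate 3 was 0.63, 1.47 and 0.43 higher in these genes, and replicate 1 was 2.02, 2.27 and 1.97 higher. The 3 knockout TAC hearts were 4.64 to 4.78 higher in Cilp, 4.32 to 4.90 in Postn and 3.51 to 4.46 in Fn1. In log2 signal itself, not set against sham, the lowest knockout TAC heart lay 0.35 above wild type TAC replicate 2 in Cilp. The median SD of the 6 genes was 0.26 in knockout TAC hearts and 0.94 in wild type TAC hearts. Among sham hearts the median SD was 0.16 in the knockout and 0.19 in the wild type. Over all genes the median SD was 0.11 in knockout TAC hearts, 0.14 in wild type TAC hearts and 0.11 in each sham group.

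**Figure D3:**
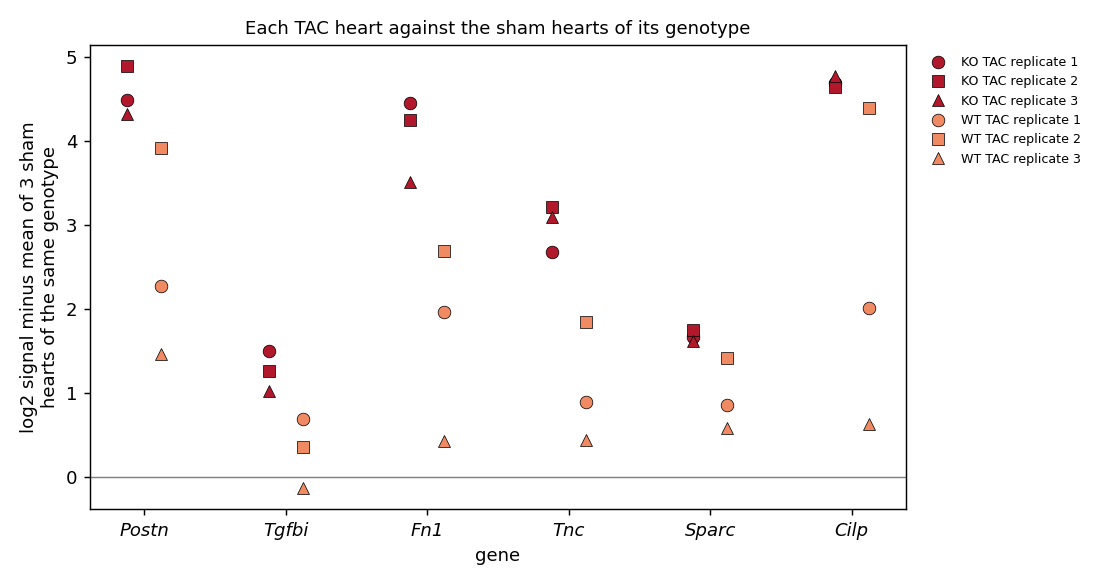
Log2 signal of each TAC heart minus the mean of the 3 sham hearts of its genotype (y axis) for each gene (x axis), with replicates as symbols. Wild type (WT) hearts spread from 0.63 to 4.39 in Cilp, while knockout (KO) hearts lie between 4.64 and 4.78.

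Whether knockout hearts held more of these messages than wild type hearts after the same surgery was asked next. After TAC, all 6 genes were higher in each knockout heart than in any wild type heart, as 7.91% of all genes were. The gap between the lowest knockout and the highest wild type TAC heart was 0.84 in Fn1, 0.73 in Tnc, 0.47 in Postn, 0.35 in Cilp, 0.31 in Sparc and 0.28 in Tgfbi. The differences ran from 0.83 to 2.46, with a median of 1.96 against -0.04 over all genes. By limma 0 of 6 passed (0.0111% of all genes did), at adjusted p from 0.0592 to 0.114. All 6 had an unadjusted p under 0.05, as had 3928 of all genes. The call changed with single arrays and with some settings. It was made for 5 genes (all but Cilp) when dim genes were left out, and for 5 (all but Tgfbi) without wild type TAC replicate 2. It was made for 5 with the replicate block, and for 1, Tnc, without knockout TAC replicate 3 or with a trended and robust variance.

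After sham operation the genotypes were close. Postn averaged 11.88 ± 0.12 in knockout and 11.82 ± 0.17 in wild type sham hearts (SD, n = 3 each), and Fn1 10.10 ± 0.18 in knockout and 10.08 ± 0.36 in wild type sham hearts. Cilp averaged 8.36 ± 0.33 in knockout and 8.26 ± 0.28 in wild type sham hearts. Differences lay between -0.09 and 0.11, and 0 of 6 were called, as 0% of all genes were by limma (unadjusted p under 0.05 in 0 of 6 and in 1493 of all genes). Arrays overlapped for all 6, whereas 12.3% of all genes did not overlap. The 95% intervals still admit differences of -0.27 to 0.48 in Sparc, -0.92 to 1.05 in Postn and -1.37 to 1.58 in Cilp. They rest on a spread shared by all 4 groups, not on the sham hearts alone. Wild type TAC hearts, with an SD of 1.90 in Cilp and 1.25 in Postn, add most to that spread.

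The genotype by TAC interaction, the TAC difference in knockout hearts minus that in wild type hearts, was positive in 6 of 6 genes. It was 2.37 ± 0.65 in Fn1, 2.36 ± 0.95 in Cilp, 2.02 ± 0.64 in Postn, 1.94 ± 0.39 in Tnc, 0.96 ± 0.28 in Tgfbi and 0.73 ± 0.24 in Sparc. None passed by limma, at adjusted p from 0.259 to 0.395, as 0% of all genes did, while 6 of 6 and 2962 of all genes had an unadjusted p under 0.05. Without wild type TAC replicate 2 the interaction was called in Postn, Tnc, Sparc and Cilp (2.70, 2.33, 0.96 and 3.38). In 5 of the 6 genes the levels ran from knockout TAC through wild type TAC to the sham groups, which overlapped each other but neither TAC group. In Tgfbi the wild type TAC group overlapped the sham groups too.

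The lowest heart of a group was often replicate 3, while the highest heart of the knockout TAC group was replicate 1 in 2 genes, replicate 2 in 3 and replicate 3 in 1. Replicate 3 was the lowest heart in 4 of 6 genes among knockout TAC hearts (30.9% of all genes) and in 6 of 6 among wild type TAC hearts (29.0%). After sham it was the lowest in 4 of 6 genes in the knockout (28.5%) and in 5 of 6 in the wild type (30.1%). After centring each gene on its mean, Postn and Cilp differed by a root mean square of 0.36 log2 units over the 12 arrays, and Tgfbi and Sparc by 0.35. Postn and Fn1 differed by 0.45, while Tgfbi and Cilp, the least alike pair, differed by 1.65.

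Each gene was compared with 506 other genes whose group means spanned at least 1 log2 unit. Predicted genes, small RNAs, olfactory receptors and clone names were passed over. Among the 506 the pattern nearest to Cilp was that of Thbs4, a thrombospondin, with a root mean square difference of 0.15 over 12 arrays. Thbs4 (0.36) also stood next to Postn, after Cilp and before Fn1. Nearest to Fn1 were Col3a1 (0.26), Ltbp2 (0.32) and Col1a1 (0.36), the chains of collagens III and I and a latent TGF-beta binding protein. Nearest to Tnc were Srpx2 (0.20), Svep1 (0.21) and Col5a2 (0.23). Nearest to Sparc were Mrc2, a collagen uptake receptor, at 0.10, Adcy7 at 0.12 and Ctsz at 0.14. Nearest to Tgfbi were Bmp1, the procollagen C-proteinase, Tspo and C1ra, at 0.14, 0.14 and 0.15. These distances are on the log2 scale and favour genes of like range.

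Other genes tied to these proteins were followed in knockout hearts after TAC. In that comparison 7.08% of all genes were called higher and 12.8% in either direction, and the median difference was -0.03. All 11 measured matrix partners (of 13 listed) rose, by 0.94 to 3.81, with Col3a1 at 3.81 ± 0.38, Col6a1 at 2.14 ± 0.21 and Col5a2 at 2.62 ± 0.29, and a list median of 2.14. Among 14 cell surface receptors of these proteins 10 rose and 1 fell, with a median of 0.56. Sdc1, not called, was under the background percentile on all 12 arrays. Cd44, a receptor of osteopontin and hyaluronan, rose by 1.25 ± 0.12, Itga9, a tenascin C receptor chain, by 1.32 ± 0.16, and the fibronectin receptor chain Itga5 by 1.16 ± 0.14. Itgb6, an epithelial integrin chain named here after its value was seen, fell by 0.75 ± 0.14. Among 11 measured genes of TGF-beta and other signalling (of 15 listed) 7 rose and 1 fell, with a median of 1.05. Ccn2 and Skil were among the 7, and whether any gene of this list acts upstream of the others was not tested. The TGF-beta receptors Tgfbr1 and Tgfbr2 rose by 1.05 ± 0.12 and 1.17 ± 0.14 and the ligand Tgfb1 by 0.97 ± 0.12, while the angiotensin receptor Agtr1a, also named after its value was seen, fell by 0.88 ± 0.16.

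Proteases and inhibitors that act on these proteins were called higher in 6 of 11 measured genes (of 12 listed), with a median of 0.79. Of the 5 not called, 3 (Mmp7, Mmp9 and Mmp12) were under the background percentile on all 12 arrays. Among all genes 7.08% were called higher in knockout hearts after TAC, with a median of -0.03. Timp1, an inhibitor of matrix metalloproteases, rose at least 6.35-fold, its knockout sham arrays all being under the background percentile (measured means 8.45 after TAC and 5.34 after sham, adjusted p = 0.000446). The stromelysin Mmp3 rose by 1.72 ± 0.20 and the plasminogen activator Plat by 1.06 ± 0.15. Of 17 measured relatives of the 7 genes and other matrix-linked genes (20 listed as 1 group) 4 rose, and the list median was 0.11. Fstl1, of the SPARC family, rose by 2.71 ± 0.30, Sparcl1 by 0.89 ± 0.11 and the fibulin Fbln2 by 1.12 ± 0.14. The fourth was the proteoglycan versican, Vcan, at 1.89 ± 0.27, named after its value was seen. Of the genes of this list not called, 8 were under the background percentile on all 12 arrays, among them the tenascins Tnn and Tnr and Cilp2. For these 8 the lack of a call does not show that the message was unchanged. In wild type hearts 0 genes of these 5 lists were called for TAC by limma, where 0.178% of all genes were. Between genotypes after TAC 1 was called, where 0.0111% of all genes were. It was Mmp3, at 8.44 ± 0.16 in knockout and 6.77 ± 0.31 in wild type TAC hearts (difference 1.66 ± 0.20, adjusted p = 0.044).

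**Figure D4:**
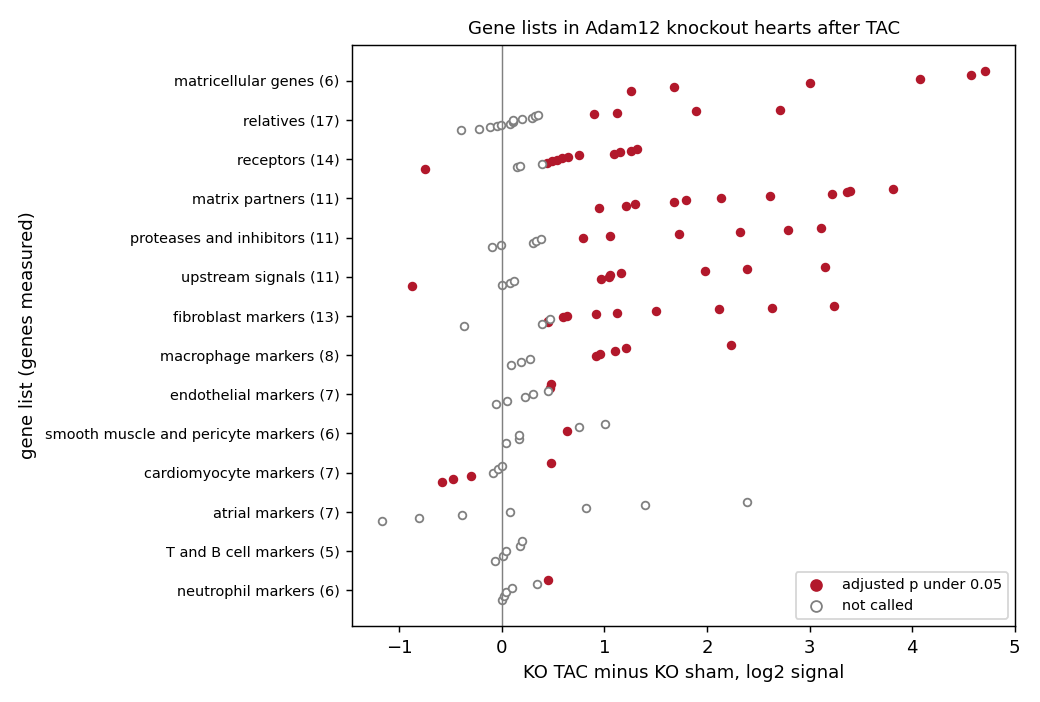
TAC minus sham difference in log2 signal in knockout (KO) hearts (x axis) for the genes of each list (y axis, number of genes measured in brackets), filled where adjusted p was under 0.05. The 6 matricellular genes lie between 1.26 and 4.71 and all 11 matrix partners to the right of 0, while atrial, T and B cell markers are all open. Differences are as measured, also where sham signal was under the background percentile.

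Fibroblast markers, of cells known to make these proteins, were set beside them. In whole hearts a change in the number of cells of a type and a change in message per cell cannot be told apart. Of 13 measured fibroblast markers (of 14 listed) 10 rose in knockout hearts after TAC, with a median of 0.63. Over all genes 7.08% were called higher there, and the median was -0.03. Meox1, a transcription factor of activated fibroblasts, rose by 3.24 ± 0.42, Col14a1 by 2.63 ± 0.33 and Fap by 0.92 ± 0.10. The 3 not called by limma included Gsn, with the other sign at -0.37 ± 0.18 (adjusted p = 0.232), and Dcn at 0.47 ± 0.16 (adjusted p = 0.0857). The third, S100a4, was under the background percentile on all 12 arrays. Tcf21, a transcription factor of resident fibroblasts, averaged 8.33 ± 0.19 in knockout and 8.24 ± 0.23 in wild type hearts after TAC, and 7.88 ± 0.09 in knockout and 7.83 ± 0.11 in wild type hearts after sham (SD, n = 3 each). Between TAC groups the fibroblast markers had a median difference of 0.38, against -0.04 over all genes, and 12 of 13 were higher in the knockout. By limma 0 of 13 were called there, where 0.0111% of all genes were. Of the 13, 9 had an unadjusted p under 0.05, as had 3928 of the 26989 genes. The marker differences included 1.74 ± 0.42 in Meox1 (adjusted p = 0.081), 1.61 ± 0.33 in Col14a1 (adjusted p = 0.0631), 0.41 ± 0.10 in Fap (adjusted p = 0.0934) and 0.08 ± 0.13 in Tcf21 (adjusted p = 0.796). The summed signal of the fibroblast markers ran from 17.33 to 17.67 in knockout and 16.78 to 17.43 in wild type hearts after TAC, and 16.91 to 17.10 in knockout and 17.02 to 17.21 in wild type hearts after sham. Its low end in the wild type TAC group was again replicate 3. The brightest genes in that sum were Dcn, Dpt and Gsn (means 16.51, 15.42 and 14.62 in knockout TAC hearts).

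For the other cell types too, the share over all genes in knockout hearts after TAC was 7.08% called higher and 12.8% in either direction. Of 8 measured macrophage markers (of 12 listed) 5 rose in knockout hearts, among them the lysozyme gene Lyz2 at 1.21 ± 0.20 and the lysosomal protein Cd68 at 0.96 ± 0.16. Ccr2 of recruited monocytes, with its knockout sham arrays under the background percentile, rose at least 3.35-fold (measured means 7.53 after TAC and 5.29 after sham, adjusted p = 0.000718). Their summed signal ran from 14.20 to 15.11 in knockout and 13.92 to 14.13 in wild type hearts after TAC, and 13.31 to 13.61 in knockout and 13.30 to 13.63 in wild type hearts after sham. Endothelial markers were called higher in 2 of 7 measured, Pecam1 at 0.47 ± 0.09 and Emcn at 0.47 ± 0.14, and in 1 to 3 when single arrays were left out. Of 6 measured smooth muscle and pericyte markers 1 was called, Cspg4, at 0.63 ± 0.11, and Myh11 differed by 0.16 ± 0.32 (adjusted p = 0.819). Cardiomyocyte markers had 3 of 7 lower and 1 higher, with Tnni3 at -0.58 ± 0.08, Ryr2 at -0.48 ± 0.08 and Mybpc3 at 0.48 ± 0.11, the last of these not called without knockout TAC replicate 3 or knockout sham replicate 2. The 3 not called, Myh6, Tnnt2 and Mb, barely varied. Their SDs in knockout sham hearts were 0.0014, 0.0035 and 0.0013, against a median of 0.11 over all genes. Whether these signals could still show a change was not tested. Of 5 T and B cell markers 0 were called and all 5 averaged below the background percentile in each group, and so did all 6 neutrophil markers, of which 1, Csf3r, was called with every array below it. The part of these cells in the differences of the matricellular genes was not tested.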

How the data were processed

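Total RNA of 12 hearts (250 ng each, per the labels) was hybridized to Clariom D arrays, 1 per heart. The deposited table held log2 signals of 65527 probe sets from Affymetrix Expression Console, per the submitters' processing notes. The log2 scale was read from the values. Normalization and summarization are not given in the sources used here. Control probe sets (6732) were left out. Symbols came from the platform annotation, updated through Entrez IDs with RefSeq (GRCm38.p6). Of the other 58795 probe sets, 27268 had 1 symbol, 1932 several and 29595 none. The probe set with the highest mean stood for its gene (26989 genes), with no filter on dim genes.

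All groups were fitted together with limma 3.58.1 in R 4.3.3 (1 mean per group, default empirical Bayes, 2-sided tests, Benjamini-Hochberg over all genes, called at adjusted p under 0.05). The same code was tested on simulated data. Errors of differences are SE of limma, errors of levels SD. The fit shares 1 spread per gene over all 4 groups, so each difference between 2 groups has the same SE. That SE does not show that some groups were tighter or wider than others. The lower bounds on the folds of Tnc, Timp1 and Ccr2 took the background percentile in place of sham values under it. With 3 arrays a group, the number of arrays limits the precision.

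The members, lists, comparisons and motifs were chosen with earlier results of these data known. Named genes were the 7 listed, the 3 nearest in pattern to each, the 3 smallest p values of each list described for TAC in the knockout, and defining cell markers, of which Pdgfra and Adgre1 were not analysed here. Not every gene that the rule admits is printed. Alternatives left out single arrays, added the replicate number as a block, or changed normalization, filter, variance model, weights, features or samples.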

Additional observations from a re-analysis of the deposited data

How the results depend on the processing

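In knockout hearts after TAC, and averaged over genotypes, 6 of 6 genes stayed called under every alternative run. For TAC in wild type hearts (0 called) leaving out single arrays gave 0 to 5 calls, the replicate block 3, quantile normalization 2, leaving out dim genes 2 and array weights 5. For knockout against wild type after TAC (0 called) single arrays gave 0 to 5, the block 5, leaving out dim genes 5 and a trended and robust variance 1. For the interaction (0 called) single arrays gave 0 to 4. For genotype after sham 0 were called under every alternative, and small differences changed sign. Leaving out single arrays gave -0.0155 to 0.15 for Postn, -0.16 to 0.0492 for Tgfbi, -0.19 to 0.16 for Fn1 and -0.0658 to 0.27 for Cilp, and array weights gave -0.10 for Fn1. Leaving out dim genes tests fewer genes with the same differences; the cause of the other changes was not tested.

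Same-numbered hearts share only a number. Their deviations from group means correlated across genes between -0.11 and 0.34, and 9 of 12 arrays correlated best with an array of their own number, a hint from the data and not the design. With the block, 266 genes were called for TAC in wild type hearts and 593 for genotype after TAC, against 48 and 3 without it. Leaving out single arrays left 8 or more receptors and 7 or more fibroblast markers called higher in the knockout after TAC. It gave 1 to 3 endothelial markers called higher, and 0 to 1 cardiomyocyte, atrial and T and B cell markers. Limits are 3 arrays a group, the spread between wild type TAC hearts, and dim sham signal in Tnc, Timp1 and Ccr2.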
